A study of Mus musculus with 8 samples.

Results

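The genes described here are 36 genes of cell division, taken by symbol from a count table of 24516 genes in cardiac tissue macrophages of the mouse. They were split by role into 9 genes of DNA replication (Mcm2 to Mcm7, Pcna, Tyms and Rrm2), 4 genes of entry into S phase (Ccne1, Ccne2, E2f1 and Tk1) and 23 genes of mitosis. The study compared EcTM, macrophages derived from the endocardium, with non-EcTM, macrophages of the heart without that origin. Hearts came from C57BL/6 mice at postnatal day 28, the cells were isolated by flow sorting, and both groups carried the genotype Nfatc1Cre/+; Rosa26Tomato reporter/+. In such mice Cre recombinase is made where the endocardial transcription factor gene Nfatc1 is active, and the reporter then stays on in the descendants of those cells, so the split depends on where and how fully Cre acted. Each group has 4 libraries of total RNA, with an E before the number in the name of an EcTM library and an N before that of a non-EcTM library. Those of the same number form 4 pairs, called P591 (E591 with N591), P592 (E592 with N592), P604 (E604 with N604) and P606 (E606 with N606) below. Whether a pair is an animal, a litter or a preparation is not stated in the labels.

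Cell division is driven by cyclins that switch on cyclin-dependent kinases in turn. In late G1, cyclin E and the E2F factors turn on the genes of DNA synthesis, and the MCM helicase and the sliding clamp PCNA then copy the genome. Genes of mitosis are held down in resting cells and switched on in G2, when cyclin B with CDK1, the Aurora and Polo kinases and the kinesins build the spindle and part the chromosomes. Tissue macrophages of the young heart are known to renew themselves partly by dividing in place.

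Counts in genes summed to 2152425 to 2937464 per library, and 0 counts in 1 library leave room for up to 3 counts, or 1.02 to 1.39 CPM. CPM are read counts as a share of the library's counts, set to a common total, with the library's total scaled with TMM factors (a scaling that sets most genes level between libraries). Since they are not divided by transcript length, genes are compared between libraries and not with each other. Macrophage markers, among them Csf1r, Adgre1, Mertk and C1qa, summed to 23545 to 26160 CPM in every library. Erythroid markers were at 0 in all 8 libraries, and the neutrophil, B cell, T and NK cell and progenitor lists summed to 0 to 8.74 CPM. Endothelial markers summed to 32.5 to 890.0 CPM and were highest in N591 and next in E591. The library pair P592 stood apart in the sex-linked genes, with 1 and 8 counts of Xist against 935 to 1682 in the other 6 libraries. Where 4 values of a group are given below, they follow the order P591, P592, P604 and P606.

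Promoter sequences are shown for 8 members because the genes of replication and those of mitosis are known to be switched on by different promoter elements. Stretches run from 130 bases before the start of the transcript to 30 after it, 5′ to 3′ on the strand of the gene, from RefSeq on GRCm38.p6, the assembly that mm10 names. Capitals mark 3 kinds of motif on either strand: the CHR element of G2 and mitosis genes (TTTGAA or TTCGAA, or TTCAAA read on the other strand), the box CCAAT, to which the factor NF-Y is known to bind and which reads ATTGG on the other strand, and an E2F core (the letters TTCCCGC, and also the letters TTCGCGC, the letters TTGCCGC and the letters TTGGCGC). The first 6 are genes of mitosis, and Mcm3 and Pcna are genes of replication.
Mki67 (chr7:135716350-135716509, minus strand): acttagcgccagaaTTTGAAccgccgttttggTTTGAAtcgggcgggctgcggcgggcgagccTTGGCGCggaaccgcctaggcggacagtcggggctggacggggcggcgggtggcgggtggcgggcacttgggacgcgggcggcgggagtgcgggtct
Top2a (chr11:99024160-99024319, minus strand): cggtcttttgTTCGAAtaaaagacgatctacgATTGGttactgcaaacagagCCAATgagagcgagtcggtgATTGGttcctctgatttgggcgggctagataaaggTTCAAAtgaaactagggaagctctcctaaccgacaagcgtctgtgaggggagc
Cenpf (chr1:189688057-189688216, minus strand): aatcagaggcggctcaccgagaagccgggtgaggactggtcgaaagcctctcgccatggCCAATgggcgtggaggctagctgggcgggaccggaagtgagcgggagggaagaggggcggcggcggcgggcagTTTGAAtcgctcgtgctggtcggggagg
Kif11 (chr19:37376252-37376411, plus strand): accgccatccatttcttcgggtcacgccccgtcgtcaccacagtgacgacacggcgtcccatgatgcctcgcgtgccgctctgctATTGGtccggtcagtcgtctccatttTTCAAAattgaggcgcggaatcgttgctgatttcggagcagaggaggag
Ccnb2 (chr9:70421525-70421684, minus strand): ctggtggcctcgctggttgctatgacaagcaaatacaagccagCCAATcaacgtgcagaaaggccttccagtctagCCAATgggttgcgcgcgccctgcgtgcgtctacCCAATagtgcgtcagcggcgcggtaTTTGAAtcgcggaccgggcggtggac
Cdc20 (chr4:118437314-118437473, minus strand): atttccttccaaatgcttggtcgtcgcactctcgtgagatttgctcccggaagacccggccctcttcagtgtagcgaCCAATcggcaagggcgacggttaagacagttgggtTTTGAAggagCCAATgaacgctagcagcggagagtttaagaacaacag
Mcm3 (chr1:20820283-20820442, minus strand): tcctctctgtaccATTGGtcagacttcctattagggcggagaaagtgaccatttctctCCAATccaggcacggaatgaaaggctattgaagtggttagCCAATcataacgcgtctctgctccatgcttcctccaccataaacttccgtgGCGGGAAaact
Pcna (chr2:132253151-132253310, minus strand): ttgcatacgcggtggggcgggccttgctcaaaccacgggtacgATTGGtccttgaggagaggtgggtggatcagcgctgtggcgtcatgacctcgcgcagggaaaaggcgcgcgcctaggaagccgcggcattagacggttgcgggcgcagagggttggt

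Windows of 300 bases, from 250 before the start to 50 after it, were on hand for 30 of the 36 members (31 windows) and for 27025 genes in all (32851 windows). The CHR letters stood in 15 of 19 windows of mitosis genes (78.9%), in 2 of 9 windows of replication genes (22.2%) and in 19.2% of all windows. The E2F core was in 6 of 9 replication windows (66.7%), 3 of 19 mitosis windows (15.8%) and 9.57% of all windows. CCAAT was found in 17 of 19 mitosis windows (89.5%), 8 of 9 replication windows (88.9%) and 37.4% of all. The 3 windows of Ccne1, E2f1 and Tk1 held none of the 3 motifs. That of E2f1 (chr2:154569377-154569676, minus strand) does not reach the outer end of the annotated gene, at 154569892. Letters around that end were not read. In the members' windows the matches overlapped in 3 pairs of CCAAT with an E2F core, 5 pairs of E2F cores and 1 pair of CCAAT. These counts describe letters in the reference and are not measurements of binding.

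Of the 36 members, 30 had at least 1 count and 20 had counts in all 8 libraries. Tyms (thymidylate synthase), Ccne2 (a cyclin E), Bub1 and Aurka (kinases of mitosis), Cenpa (the histone of the centromere) and Tpx2 (a spindle assembly factor) were listed at 0 in every library. Each of these 6 has at least 2 curated RefSeq transcripts. The 21 members with 1 curated transcript all had counts, with totals over 8 libraries of 33 to 18122 and a median of 888. The 9 members with 2 transcripts had a median total of 3, and the 6 with at least 3 had a median of 1 and a highest total of 695, in Mcm7. A member at 0 in this table is therefore not read as a silent gene. The part that the counting of multi-transcript genes played in the low values was not tested, and their counts may be low by an unknown factor.

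Mcm5 had 22 counts over the 8 libraries, Mcm6 24, Ccnb1 34, Birc5 33, Ccne1 33, Kif20a 16, Nusap1 3, Spc25 2 and Tk1 2. None of these 9 passed the filter on low counts, and no group comparison was made for them. Mcm5, an MCM helicase subunit, had 0, 0, 0 and 8 counts in EcTM and 2, 1, 11 and 0 counts in non-EcTM. Its count came almost entirely from E606 and N604. Mcm6, another subunit, had 0, 8, 2 and 3 counts in EcTM and 0, 0, 5 and 6 counts in non-EcTM. Tk1 (thymidine kinase, which salvages thymidine) had its 2 counts in E591. Ccne1, a cyclin E with 1 curated transcript, had 1, 0, 6 and 11 counts in EcTM and 1, 3, 5 and 6 counts in non-EcTM, too few to rank the libraries. The filter left 21 members to test: 6 of replication, E2f1 and 14 of mitosis. Plk1 passed the filter's level of 4.11 CPM in 2 EcTM and 4 non-EcTM libraries, Ube2c in 4 and 2, Rrm2 and E2f1 in 3 and 2, and Cdk1, Ccnb2, Aurkb and Cdc20 in 3 and 4. The other 13 were above it in all 8.

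EcTM and non-EcTM were first compared, which asks whether macrophages of endocardial origin differ in their cell cycle transcripts from the rest. No member differed at an adjusted p under 0.05. In edgeR's quasi-likelihood test with the number as a replicate block and Benjamini-Hochberg adjustment, 0 of 21 members were called, against 1 of 7667 genes (0.013%). At an unadjusted p under 0.05 there were 3 members, Mcm2 above and Cdk1 and Plk1 below in EcTM, against 414 genes (5.4%). DESeq2 and limma-voom with the same block also called 0 members, each with 3 at an unadjusted p under 0.05. Of these 3, 1 was higher in EcTM in DESeq2 and 2 in limma-voom, so the genes were not the same in every test. Without the block edgeR called 0 members and none had an unadjusted p under 0.05. In no member did the 4 EcTM libraries lie wholly above or below the 4 non-EcTM libraries, which 207 of all genes (2.7%) did. The wide spread of most mitosis genes between pairs, described below, left little room for such a separation. In these bulk libraries, fewer cells in cycle and less RNA per cell cannot be told apart, and p-values measure only the spread between libraries. Macrophage markers summed higher in EcTM in 4 of 4 pairs and cardiomyocyte markers (64.9 to 150.1 CPM, with Myh6 and Tnnt2 at 0) lower in 4 of 4. Dendritic cell markers summed higher in EcTM in 4 of 4 pairs (34.2 ± 8.31 against 24.9 ± 4.92 CPM, SD, n = 4 each). In that list Flt3 had 27, 19, 41 and 22 counts in EcTM and 14, 14, 22 and 12 in non-EcTM. Itgax had 36, 20, 23 and 80 against 20, 24, 23 and 33. Zbtb46 went the other way, with 8, 5, 10 and 1 against 15, 14, 11 and 9. Neutrophil markers summed lower in EcTM without overlap (0 to 0.877 against 2.74 to 5.61 CPM). These were 0 to 2 counts in EcTM libraries and 7 to 17 in non-EcTM. Cxcr2 had 0, 0, 0 and 0 against 8, 6, 6 and 4 of them, and S100a8 0, 0, 2 and 0 against 0, 0, 2 and 10. The part of these lists in the values below was not tested.

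Among the genes of replication, Mcm2 and Mcm3 are subunits of the helicase that opens DNA at the fork. Mcm2 (chr6:88883474-88898780) had 77.2, 101, 123 and 144 CPM in EcTM and 67.9, 59.9, 106 and 110.2 CPM in non-EcTM. EcTM lay above non-EcTM in 4 of 4 pairs, most in P592, and the groups overlapped. EcTM averaged 111 ± 28.6 and non-EcTM 86.1 ± 25.9 CPM (SD, n = 4 each). The log2 fold change of EcTM over non-EcTM was 0.38 ± 0.17 (SE), with a 95% interval of 0.032 to 0.73 and an edgeR adjusted p of 0.905. Across all genes, 7.24% were higher in EcTM in 4 of 4 pairs.

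Mcm3 (chr1:20802966-20820312) had 253, 164, 311 and 317 CPM in EcTM and 181, 185, 265 and 246 CPM in non-EcTM. It was above in EcTM in 3 of 4 pairs and below in P592, and its log2 fold change was 0.23 ± 0.12 (SE) at an edgeR adjusted p of 0.922. Mcm4 had 46.7, 67.0, 92.5 and 150.0 CPM in EcTM and 88.6, 59.5, 107 and 89.8 CPM in non-EcTM. The highest value was E606 and the lowest E591, so that EcTM held both ends of the range, and the log2 fold change was -0.036 ± 0.21 (SE). Mcm7, whose gene body overlaps Cops6 and Ap4m1 on the opposite strand, had 20.5, 19.7, 52.2 and 33.2 CPM in EcTM and 36.1, 24.7, 44.1 and 49.5 CPM in non-EcTM. EcTM was lower in 3 of 4 pairs.

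Pcna, the sliding clamp of the DNA polymerases, had 55.3, 70.1, 64.5 and 82.9 CPM in EcTM and 56.8, 71.2, 61.9 and 79.9 CPM in non-EcTM. Libraries of the same pair nearly coincided, the log2 fold change was 0.013 ± 0.20 (SE), and its 95% interval of -0.39 to 0.42 bounds a group difference. Rrm2, the ribonucleotide reductase subunit that supplies deoxynucleotides, had 6.67, 2.68, 20.2 and 15.4 CPM in EcTM and 3.18, 3.91, 10.9 and 13.5 CPM in non-EcTM. It was low in both libraries of P591 and P592 and higher in those of P604 and P606. Over the 6 tested replication genes the median log2 fold change was 0.12, against -0.01 over all genes. The summed level of the replication genes was 459, 428, 664 and 746 CPM in EcTM and 434, 405, 602 and 591.2 CPM in non-EcTM, above in EcTM in 4 of 4 pairs. Without Mcm3 the sums were 206, 264, 353 and 429.6 CPM in EcTM and 253, 219.6, 338 and 345 CPM in non-EcTM, and EcTM was then below in P591.

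E2f1, the transcription factor that turns on replication genes, had 5.72, 6.26, 5.70 and 3.95 CPM in EcTM and 0, 3.52, 4.80 and 9.24 CPM in non-EcTM. N591 had 0 counts, which allows up to 1.18 CPM, and the fitted log2 fold change of 0.73 ± 1.02 (SE) depends on how that 0 is handled. E2f1 has 2 curated transcripts. It was the 1 gene of S phase entry with enough counts to test.

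No gene of mitosis passed the test between the groups. Mki67, which encodes the proliferation marker Ki-67 on the surface of mitotic chromosomes (chr7:135689784-135716450), had 577, 453, 1308 and 1321 CPM in EcTM and 456, 439, 1288 and 1434 CPM in non-EcTM. The 4 libraries of P604 and P606 lay at 1288 CPM or above and the 4 of P591 and P592 at 577 CPM or below, in EcTM and in non-EcTM alike. EcTM averaged 915 ± 465 and non-EcTM 904 ± 531 CPM (SD, n = 4 each). The log2 fold change was 0.069 ± 0.078 (SE) with a 95% interval of -0.091 to 0.23 and an edgeR adjusted p of 0.974, the narrowest interval among the 21 members.

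Top2a, the topoisomerase that untangles sister chromatids, had 145, 113, 331 and 293 CPM in EcTM and 89.4, 90.0, 279.6 and 336 CPM in non-EcTM. EcTM was above in 3 pairs and below in P606, and the log2 fold change was 0.25 ± 0.13 (SE) at an edgeR adjusted p of 0.931. Cenpf, a protein of the kinetochore and nuclear matrix, had 51.5, 41.6, 209 and 208 CPM in EcTM and 62.7, 45.0, 175 and 185 CPM in non-EcTM. Cenpe, the kinetochore motor, had 51.0, 53.6, 107 and 103 CPM in EcTM and 46.5, 31.7, 119.9 and 122 CPM in non-EcTM. In both, EcTM was above in 2 of 4 pairs, and the low and the high libraries were again those of P591 and P592 and those of P604 and P606.

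The kinases and cyclins that start mitosis were next. Cdk1, the kinase of mitotic entry, had 1.43, 6.26, 22.8 and 19.3 CPM in EcTM and 14.3, 7.04, 33.6 and 32.3 CPM in non-EcTM. EcTM was lower in 4 of 4 pairs, and E591 held only 3 counts. Its log2 fold change was -0.99 ± 0.47 (SE), with a 95% interval of -1.97 to -0.014 and an edgeR adjusted p of 0.914. Without P591 it was -0.52. Plk1, the Polo kinase of spindle assembly, had 3.33, 2.68, 21.1 and 8.69 CPM in EcTM and 10.3, 5.87, 36.2 and 22.1 CPM in non-EcTM. It too was lower in EcTM in 4 of 4 pairs, with a log2 fold change of -1.19 ± 0.49 (SE) (95% interval -2.19 to -0.19) and an edgeR adjusted p of 0.874.

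Ccnb2, a B-type cyclin partner of CDK1, had 6.67, 0.894, 44.3 and 35.1 CPM in EcTM and 10.3, 7.04, 37.1 and 42.6 CPM in non-EcTM. Its lowest library, E592, held 2 counts, and the 4 libraries of P604 and P606 lay above the other 4. Ccna2, the A-type cyclin of S phase and G2, had 26.2, 12.5, 46.1 and 48.6 CPM in EcTM and 15.1, 24.3, 46.7 and 56.4 CPM in non-EcTM. Its gene body overlaps Exosc9 on the opposite strand. Aurkb, the kinase of the chromosomal passenger complex, had 2.38, 9.83, 29.4 and 13.4 CPM in EcTM and 10.3, 10.2, 20.5 and 33.3 CPM in non-EcTM, lowest in E591, where EcTM had 5 counts. In all 3 genes EcTM was lower in 3 of 4 pairs, and their log2 fold changes were -0.54 ± 0.41 (SE), -0.095 ± 0.30 (SE) and -0.64 ± 0.48 (SE).

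Kif11, the motor that pushes spindle poles apart (chr19:37376382-37421863), had 19.1, 12.5, 93.4 and 69.5 CPM in EcTM and 20.7, 18, 103 and 79.5 CPM in non-EcTM. Kif23, a motor of the midzone needed for cytokinesis, had 61.0, 62.1, 113 and 92.8 CPM in EcTM and 78.2, 82.6, 116 and 133 CPM in non-EcTM. Both were lower in EcTM in 4 of 4 pairs, with log2 fold changes of -0.23 ± 0.23 (SE) and -0.33 ± 0.17 (SE). Together with Cdk1 and Plk1 they made 4 of 14 mitosis genes lower in 4 of 4 pairs, where 6.89% of all genes were, and 0 of 14 were higher in 4 of 4. Bub1b, the checkpoint kinase-like protein BubR1, had 20.5, 11.2, 58.3 and 64.0 CPM in EcTM and 10.3, 27.4, 93.3 and 71.0 CPM in non-EcTM, with EcTM lower in 3 of 4 pairs.

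The last 2 act on the anaphase-promoting complex, the ubiquitin ligase that ends mitosis. Ube2c, its ubiquitin-conjugating enzyme, had 16.2, 9.38, 22.8 and 35.1 CPM in EcTM and 1.99, 3.52, 34.0 and 32.3 CPM in non-EcTM, with N591 and N592 the lowest libraries. Cdc20, its activator, had 6.19, 1.79, 30.7 and 15.4 CPM in EcTM and 7.94, 5.48, 29.2 and 14.9 CPM in non-EcTM, with EcTM above in 2 of 4 pairs. Neither passed the test, with log2 fold changes of 0.75 ± 0.48 (SE) and -0.34 ± 0.49 (SE). The gene bodies of Ube2c and Tnnc2 and those of Cdc20 and Elovl1 overlap on opposite strands, and those of Kif11 and Cenpf overlap processed pseudogenes, so reads there may be shared.

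Over the 14 tested mitosis genes the median log2 fold change was -0.27, with 5 above 0 and 9 below. In the 4 pairs taken singly the median was -0.20 in P591, -0.28 in P592, -0.03 in P604 and -0.21 in P606 (SD 0.11), and that of the replication genes was 0.07, -0.10, 0.22 and 0.27 (SD 0.17). The summed mitosis genes did not follow their median. The sums were 994, 793, 2439.9 and 2331 CPM in EcTM and 838, 802, 2418 and 2601 CPM in non-EcTM, above in EcTM in 2 of 4 pairs. Without Mki67 the sums ran from 339.6 to 1167 CPM, and EcTM averaged 725 ± 404 and non-EcTM 761 ± 448 CPM (SD, n = 4 each).

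**Figure D1:**
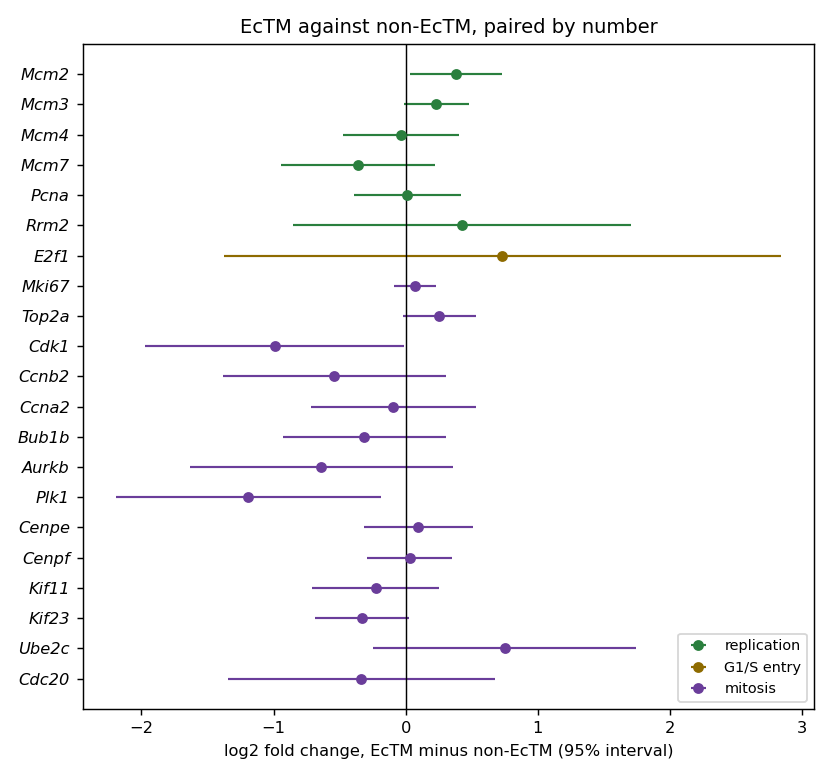
Log2 fold change of EcTM over non-EcTM (horizontal axis) for the 21 tested members, with points for the edgeR estimate paired by number and bars for the 95% interval. The intervals of Mcm2, Cdk1 and Plk1 leave out 0 before adjustment, and those of Mki67 (-0.09 to 0.23) and Top2a (-0.02 to 0.53) are among the narrowest.

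The mitosis genes differed between the 4 pairs, with the higher means in P604 and P606 and the lower ones in P591 and P592. In the test across the 4 pairs, made in the same edgeR model and added after the values were seen, 9 of 14 mitosis genes passed an adjusted p of 0.05, with 1 of 6 replication genes and not E2f1, against 233 of 7667 genes (3.04%). The 9 were Mki67 (adjusted p 4.71e-11), Cenpf (9.14e-08), Top2a (4.68e-07), Kif11 (5.62e-06), Bub1b (7.79e-04), Ccnb2 (8.78e-04), Cenpe (0.00119), Cdc20 (0.0447) and Ube2c (0.0471). Mcm3 (0.0342) was the replication gene. At an unadjusted p under 0.05 all 14 tested mitosis genes and 5 of the 6 replication genes were found, against 862 of all genes. The test sets the difference between pairs against the spread that is left between the EcTM and the non-EcTM library of a pair. Whether a pair is an animal, a litter or a preparation, each has 1 EcTM and 1 non-EcTM library. The p-values therefore do not cover the spread between such units. If a pair is 1 animal, the comparison is between single animals.

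**Figure D2:**
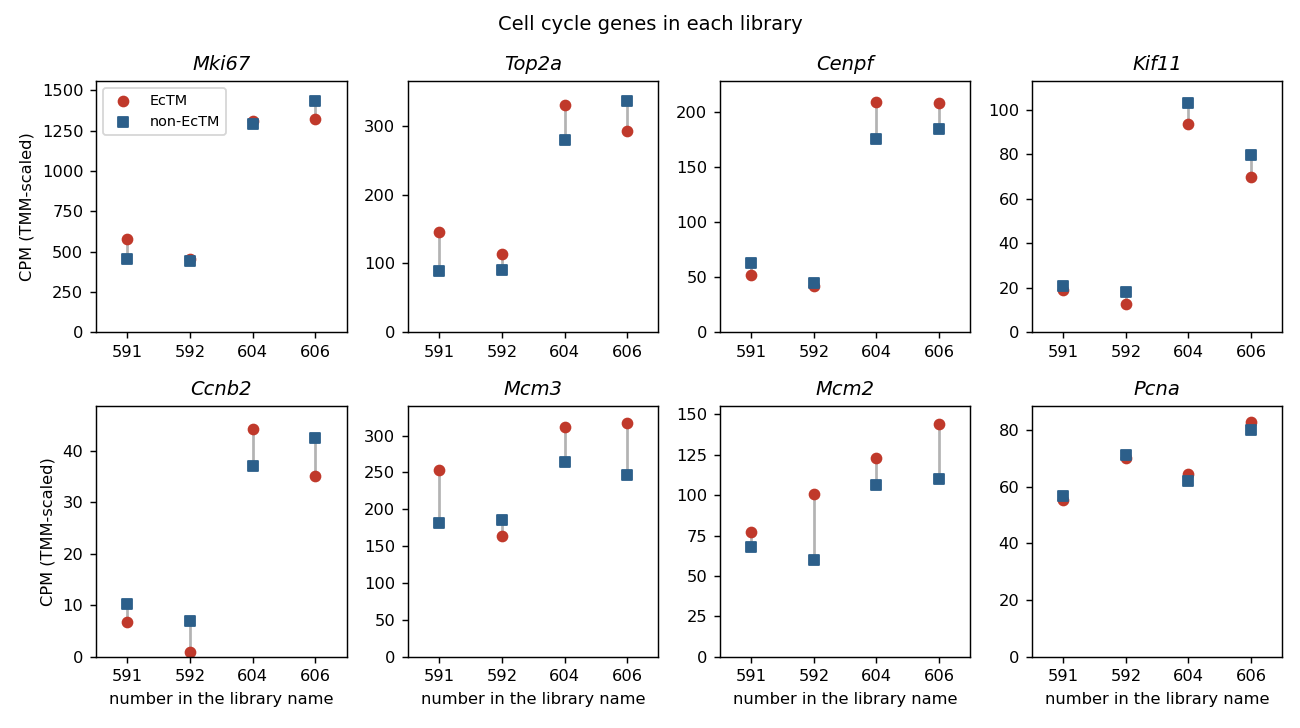
TMM-scaled CPM (vertical axis, from 0) of 8 members in each library, by the number in the name of the pair (horizontal axis), with circles for EcTM, squares for non-EcTM and a grey line joining the libraries of a pair. In Mki67, Top2a, Cenpf, Kif11 and Ccnb2 both libraries of P604 and P606 lie above all of P591 and P592, while Pcna spans only 55.3 to 82.9 CPM.

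Every pair was then compared with every other in that model, giving 6 contrasts adjusted one by one over all genes. Against P591, 7 mitosis genes were higher in P604 and none lower (0.496% and 0.848% of all genes), and 7 were higher in P606 and none lower (0.587% and 0.926%). Against P592, 9 were higher in P604 (0.952%, with 0.535% of all genes lower) and 7 in P606 (0.509%, with 0.339% lower), and none was lower in either. Between P592 and P591 no member differed, where 0.339% of all genes were higher in P592 and 0.9% lower. Between P606 and P604 none differed either, where 0.248% were higher in P606 and 0.483% lower. The same 7 genes, Mki67, Top2a, Ccnb2, Bub1b, Cenpe, Cenpf and Kif11, passed in all 4 contrasts of P604 or P606 with P591 or P592, and Plk1 and Cdc20 passed in that of P604 with P592.

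Mki67 differed by 1.34 ± 0.11 (SE) on the log2 scale between P604 and P591, by 1.42 ± 0.11 between P606 and P591, and by -0.21 ± 0.11 between P592 and P591. For Kif11 the same 3 differences were 2.30 ± 0.34, 1.90 ± 0.34 and -0.38 ± 0.36. Among the 14 mitosis genes Ccnb2 had the largest ratio between the highest and the lowest mean of a pair, 10.3-fold, and Kif23 the smallest, 1.65-fold. The median ratio over 14 mitosis genes was 4.39, that over 6 replication genes 1.82 and that over all 7667 genes 1.56. A ratio of this kind takes the extremes of 4 means, so it is above 1 also for genes that do not differ and is larger for genes with few counts.

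**Figure D3:**
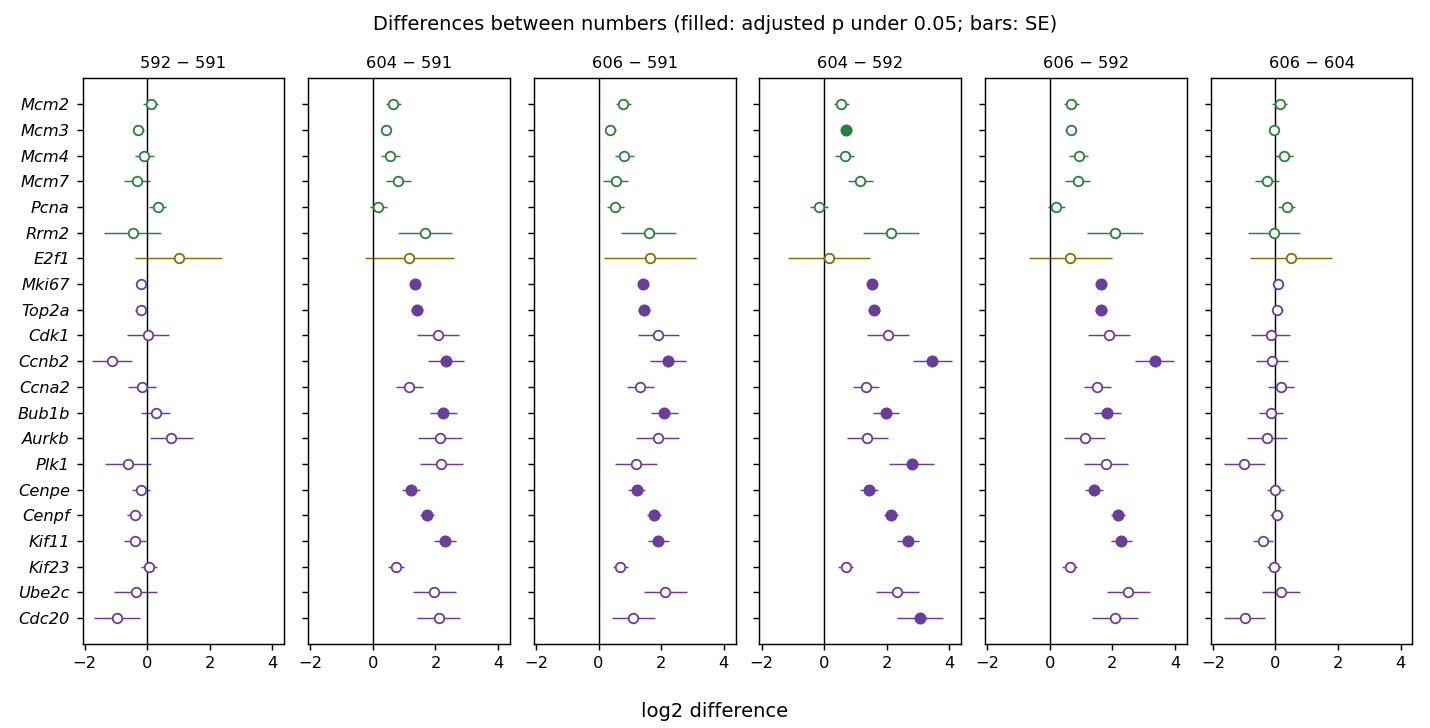
Log2 differences of the 21 tested members in the 6 contrasts between pairs, with bars for the SE and filled points for an adjusted p under 0.05. Filled mitosis points appear in the 4 middle panels, all above 0, and none appears for P592 minus P591 or P606 minus P604.

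The steps of the replication genes were smaller in their median, a difference not tested between the lists. Rrm2, a replication gene with few counts, went the other way, with a 4.71-fold range of pair means, above the mitosis median of 4.39. P604 and P606 had the 2 highest pair means in 14 of 14 tested mitosis genes, in 5 of 6 replication genes and in E2f1, against 1443 of 7667 genes (18.8%). Pcna was the exception, with pair means of 56.0, 70.7, 63.2 and 81.4 CPM in P591, P592, P604 and P606. Mcm3 passed in 1 of the 6 contrasts, by 0.71 ± 0.17 (SE) between P604 and P592 with an edgeR adjusted p of 0.0295, and no other replication gene passed in any. The median log2 difference of the 14 mitosis genes was 2.02 between P604 and P591 and 1.62 between P606 and P591, and that of the 6 replication genes was 0.61 and 0.67. Between P592 and P591 the medians were -0.21 and -0.19, and between P606 and P604 they were -0.08 and 0.05. Over all genes the 6 medians lay between 0.00 and 0.02.

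Counts of mitosis genes divided by counts of replication genes gave the same picture within each library. The ratio was 2.16, 1.85, 3.67 and 3.12 in EcTM and 1.93, 1.98, 4.01 and 4.40 in non-EcTM. It was higher in every library of P604 and P606 than in any of P591 and P592. The ratio leans on Mki67 and Mcm3, which held a large part of the counts. In E591 Mki67 had 1211 of 2087 mitosis counts and Mcm3 531 of 964 replication counts. In N606 they had 4345 of 7881 and 746 of 1791. Mitosis genes took 0.0763% to 0.0970% of all counts in the libraries of P591 and P592 and 0.229% to 0.268% in those of P604 and P606. Replication genes took 0.0401% to 0.0448% and 0.0605% to 0.0734%.

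**Figure D4:**
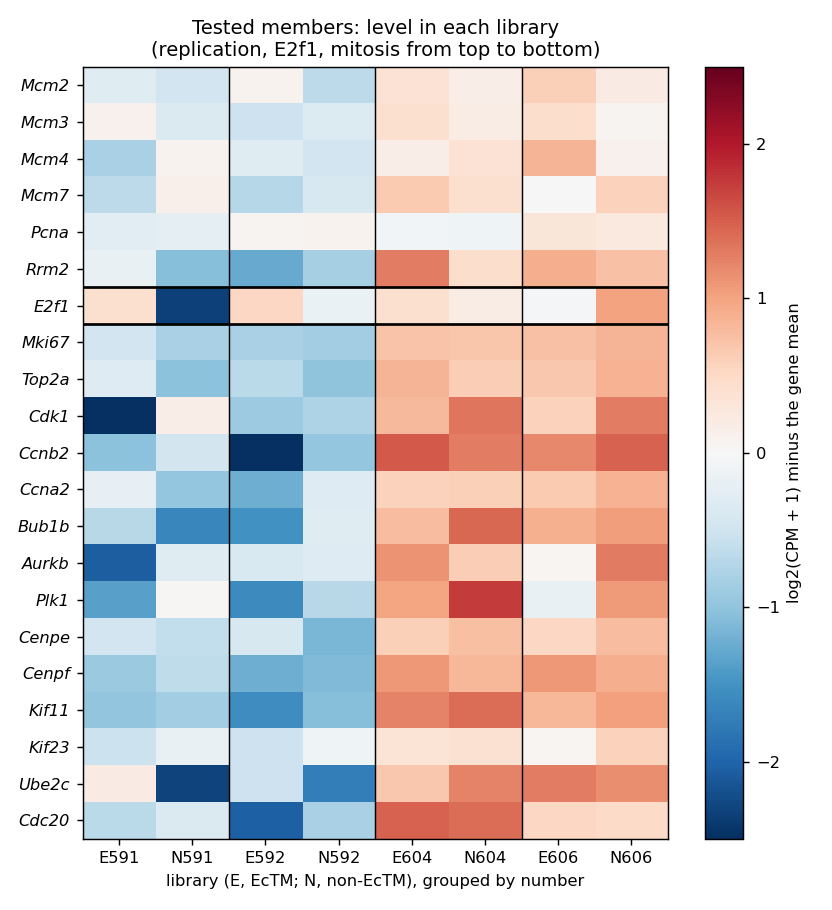
Level of each tested member (rows, replication then E2f1 then mitosis) in each library (columns, E for EcTM and N for non-EcTM, grouped by pair), as log2(CPM + 1) minus the mean of the gene, red above and blue below. The columns of P604 and P606 are red in most mitosis rows in both groups, with Plk1, Aurkb and Kif23 near white in E606, and the rows of Mcm2, Mcm3, Mcm4 and Pcna are paler.

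The 9 mitosis genes that differed among pairs were set beside their promoters. CHR letters stood in 8 of the 9 windows and CCAAT in 9 of 9, next to 15 and 17 of the 19 mitosis windows. Cenpe was the 1 of the 9 without CHR letters in its window. Of the 2 replication promoters printed above, that of Mcm3 has an E2F core beside the start, and that of Pcna has a CCAAT box and neither other motif in its 300 bases. The windows of Ccnb2 and Mki67, the genes with a 10.3-fold and a 3.09-fold range of pair means, each held 2 CHR matches and 3 CCAAT boxes.

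Other genes of the pathway were read from lists of the same kind. Of 53 tested genes of mitosis outside the members, 15 differed among pairs (28.3%), and of 30 tested genes of replication 0 did in edgeR, with 6 at an unadjusted p under 0.05, and 3 of 34 in DESeq2. Of these replication genes, Pole was higher in P606 than in P591 in the single contrast, by 2.01 ± 0.49 (SE) with an edgeR adjusted p of 0.0310. The count of mitosis genes fell to 6 of 56 (10.7%) without P592 and to 4 of 50 (8%) without P606, and was 14 of 56 without P591 and 11 of 52 without P604. The 15, named after their values were seen, were the motors Kif14, Kif15, Kif20b and Kif22, the spindle and midbody proteins Aspm, Hmmr, Ckap2l, Anln and Cit, the passenger complex subunits Incenp and Cdca8, the condensin genes Ncapd2 and Smc4, the kinase Melk and the tubulin Tubb5. Aspm had 66.7, 13.4, 98.2 and 159 CPM in EcTM and 42.5, 25.0, 148 and 161 CPM in non-EcTM. Smc4 had 132, 141, 215 and 213 CPM in EcTM and 150.1, 134, 216 and 201 CPM in non-EcTM. Aspm also differed between P592 and P591, by -1.52 ± 0.33 (SE) with an edgeR adjusted p of 0.0141, so P592 was the lowest pair there.

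Foxm1, the factor that turns on mitosis genes through CHR promoters, had 24.3, 46.0, 89.5 and 80.6 CPM in EcTM and 37.7, 35.2, 106 and 87.8 CPM in non-EcTM. It differed among pairs with an edgeR adjusted p of 0.00227, as 1 of 14 tested G1 cyclins, kinases and E2F factors. Ccnd2, a cyclin of the same list, did not pass that test (edgeR adjusted p 0.0755) and went the other way. It was lower in P604 than in P591, by -0.67 ± 0.16 (SE) with an edgeR adjusted p of 0.0367. The growth brake Btg2 was 1 of 21 brakes to differ, with a log2 difference of -0.39 ± 0.071 (SE) between P604 and P591. Of 9 tested genes that control the growth of macrophages, 3 differed among pairs (33.3%, against 3.04% of all genes). Klf2 and Klf4, which encode factors of quiescence and macrophage identity, were among them. Csf1r, Maf, Spi1, Csf2ra, Csf2rb and Irf8 did not pass that test, and Irf8 had wide errors (2.18 ± 0.90, SE, between P604 and P592).

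Klf4 had 2355, 2435, 1825 and 2104 CPM in EcTM and 2455, 2839.9, 1706 and 2009 CPM in non-EcTM. Klf2 had 3855, 2737, 2560.1 and 2655 CPM in EcTM and 3602, 2787, 2306 and 2405 CPM in non-EcTM, and was highest in both libraries of P591. In each group the libraries of P604 and P606 were the lowest 2 in both genes. Klf2 passed the test only against P591, and Klf4 between P604 and both and between P606 and P592.

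Between EcTM and non-EcTM, 0 genes of the other lists passed the edgeR test. At an unadjusted p under 0.05 there were 1 of 30 replication, 1 of 53 mitosis, 1 of 14 G1 and 2 of 21 brake genes. The genes of macrophage growth control had 2 of 9, and the share over all genes was 5.4%. The smallest p in each of the first 4 lists belonged to Pold2, a DNA polymerase delta subunit, at 1.23 ± 0.40 (SE) on the log2 scale (adjusted p 0.697), Hmgb2 at -0.80 ± 0.36 (SE), Mnat1 at -1.13 ± 0.48 (SE) and Btg2 at 0.14 ± 0.050 (SE). Pold2 and Btg2 were above in EcTM in 4 of 4 pairs and Mnat1 below in 4 of 4. Csf1r, the receptor for the growth factor of macrophages, was 1 of those 2 genes of macrophage growth control. Its log2 fold change was 0.096 ± 0.043 (SE) with an edgeR adjusted p of 0.905.

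Markers of other cells were read beside these differences. Endothelial markers summed to 337, 50.5, 32.5 and 233 CPM in EcTM and 890.0, 87.3, 147 and 116 CPM in non-EcTM, with Pecam1, Tek and Emcn at 0. Monocyte markers summed to 49.1, 53.2, 55.3 and 21.3 CPM and 99.3, 50.1, 72.8 and 43.2 CPM. Fibroblast markers summed to 21.1 to 188 CPM, highest in both libraries of P591, with Pdgfra at 0, mural markers to 27.4 to 176 CPM, with Pdgfrb and Myh11 at 0, and dendritic cell markers to 22.2 to 41.5 CPM. Progenitor markers summed to at most 8.74 CPM, with Kit and Cd34 at 0, and Elane and Camp of the neutrophil list were at 0. Kit and Cd34 have 2 curated transcripts each, and Pecam1, Tek, Emcn, Pdgfra, Pdgfrb, Myh11, Myh6 and Tnnt2 have at least 2. The 0 of these genes carries the limit named above, while Elane and Camp have 1 transcript. Macrophage markers ranged over 1.11-fold. Between P592, the pair that stood apart in Xist, and P591 no tested member passed, though some differences had wide errors (Ccnb2 -1.14 ± 0.64, SE). Outside the members, Aspm did differ between these pairs. The part of these cells and of sex in the differences between pairs was not tested, and a date, batch or litter behind a pair cannot be told apart from it.

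Leaving out both libraries of a pair in turn left 7 to 10 of the 14 mitosis genes different among the 3 pairs that remained, against 1.88% to 2.30% of all genes. Mki67, Top2a, Ccnb2, Bub1b, Cenpe, Cenpf and Kif11 passed in all 11 alternatives tried. Ube2c passed in 7, Cdc20 in 6 and Mcm3 in 8 of them. Mcm3 was lost without P592 (adjusted p 0.392), without P604 (0.126) or without P606 (0.117), Ube2c without P592 (0.302) or without P606 (0.245), and Cdc20 without P592 (0.243), without P604 (0.658) or without P606 (0.0629), all in edgeR. With all libraries kept, Ube2c also missed in limma-voom (adjusted p 0.1685) and in edgeR with upper-quartile scaling (0.0549). Cdc20 missed in the same fits (0.0807 and 0.0503). Plk1, at 0.0557 with all libraries, passed without P591 (0.0414).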

How the data were processed

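Stranded libraries were made from the total RNA of the sorted cells, per the labels. Per the submitters' processing notes, bcl2fastq 2.17, TopHat, DESeq2, R 3.2 and mm10 were used. Not given in the sources used here: which program counted reads, on which annotation and with which strand setting. The authors deposited whole-number counts for 24516 genes in 8 libraries, which were analysed here, and log2 values, in a column set headed CPM, which were not. Of these genes 10197 were at 0 in every library.

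Genes were kept with edgeR's filterByExpr, leaving 7667, and fitted in edgeR 4.0.16 (R 4.3.3, quasi-likelihood F-test) with TMM scaling, two-sided and adjusted by Benjamini-Hochberg over all tested genes, threshold 0.05. The number was a term of the model (replicate block), because the rule that chose the members compares the groups paired by number. Same-numbered libraries also deviated together. After removal of group means the 4 same-number correlations across genes were 0.12 to 0.19 and the others -0.13 to 0.05. That removal itself pulls the others down where the same-number ones are above 0. The biological coefficient of variation was 0.304. The tests between the 4 pairs were added after the data were seen. Fits were tested on simulated data. DESeq2 1.42.0, limma 3.58.1, other scalings and filters, and left-out libraries were alternatives. Figures were drawn with matplotlib 3.10.9.

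The members and gene lists were chosen with earlier results of these data known. Named were members past a threshold in any fit, members with the largest counts, all S phase entry genes with a count, and from other lists those past the threshold and up to 4 with the smallest p. Positions come from RefSeq on GRCm38.p6, matched for 24447 genes by gene number. Promoter sequences are RefSeq's. A gene that the rule names is not reported here.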

Additional observations from a re-analysis of the deposited data

How the results depend on the processing

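Under 20 alternatives 0 replication or mitosis members differed between EcTM and non-EcTM, and under the 19 that could test E2f1 0 S phase entry members did. Over all genes the paired edgeR test called 1, with no filter 10, with a total of at least 10 counts 11, with DESeq2 26, with limma-voom 19, with no replicate block 0 and over genes with 1 curated transcript 0. Leaving out libraries gave 0 to 2. The median log2 fold change of the mitosis genes was -0.12 with limma-voom and -0.12 with no replicate block, and -0.58 to 0.17 over the fits that leave out libraries. That of the replication genes was 0.024 to 0.29 and that of E2f1 -0.12 to 1.5. Single members changed sign without passing. Mcm4 was 0.081 with limma-voom and 0.050 with no replicate block, and Cenpe -0.028 and -0.022. When libraries were left out, the log2 fold changes of members that changed sign ranged as follows: Mki67 -0.22 to 0.33, Top2a -0.11 to 0.53, Ccnb2 -0.95 to 0.27, Ccna2 -0.36 to 0.22, Bub1b -0.75 to 0.081, Aurkb -1.11 to 0.015, Cenpe -0.28 to 0.26, Cenpf -0.22 to 0.44, Kif11 -0.70 to 0.30, Ube2c -0.16 to 1.32, Cdc20 -0.87 to 0.51, Mcm4 -0.33 to 0.27, Pcna -0.097 to 0.11 and E2f1 -0.12 to 1.5. Cdk1 (-1.25 to -0.43) and Plk1 (-1.90 to -0.52) kept their sign but moved by over 1.5 times, Cdk1 most without E591 and Plk1 most without N604, both without the block. Genes that differed among pairs were 350 with no filter, 377 with a total of at least 10 counts, 442 with DESeq2 and 146 to 179 without 1 pair. Replication members among them were 2, 2, 2 and 0 to 1, and mitosis members 12, 12, 13 and 7 to 10. The causes were not tested, but fewer libraries enter a fit that leaves some out. Counts of a few reads (Cdk1 in E591, Ccnb2 in E592) limit single values.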
